A study of Mus musculus with 2 samples.

Results

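A group of 10 endothelial genes was followed in the fetal mouse mandible with and without skeletal muscle. They were the junction genes Pecam1, Cdh5, Esam and Cldn5, the vascular endothelial growth factor (VEGF) receptors Kdr and Flt1, the angiopoietin receptor Tek with its relative Tie1, the co-receptor Eng and the sialomucin Emcn. They were chosen by name, as those of the listed endothelial genes to which the platform annotation assigns a probe set. All 10 had 1 probe set each that names no other gene, out of 19938 genes with a probe set of their own. One mandible sample came from wild-type BALB/c embryos at E18.5, shortly before birth. The other came from BALB/c embryos of the same age that were null for both Myf5 and MyoD (Myf5-/-:MyoD-/-), the factors that commit cells to skeletal muscle. How many embryos made up a sample, and whether they were pooled, is not stated by the sources used here. With 1 array per genotype every difference compares 2 arrays, has no replicate check and carries no p-value.

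Endothelial cells line all blood and lymphatic vessels. VEGF made by surrounding tissue acts through Kdr to make them divide and migrate, while Flt1 binds the same ligand tightly and limits how much of it reaches Kdr. Angiopoietins act through Tek (also called Tie2) to set how stable a vessel is, and the junction proteins hold the cells together and control leakage. Skeletal muscle is densely supplied with capillaries, and bone forms along ingrowing vessels, so a mandible holds vessels of both tissues. The comparison asks whether vessel genes are lower when muscle is missing.

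Promoters are shown for the pair of genes that differed most downwards, Tek and Cldn5, and the pair that differed most upwards, Emcn and Eng, chosen after their values were seen. Each is the 250 bases before the annotated start, from RefSeq on the assembly GRCm38.p6, all on the plus strand: chr4:94739039-94739288 for Tek, chr16:18776597-18776846 for Cldn5, chr3:137340828-137341077 for Emcn and chr2:32646345-32646594 for Eng. Capitals mark AGGAAG or its reverse complement CTTCCT, 6 bases that hold GGAA, the core bound by ETS factors. The endothelial regulators Erg and Fli1 belong to that family. GGAA or its reverse complement TTCC outside these 6 bases is not marked, and the Tek window holds TTCC.
Tek: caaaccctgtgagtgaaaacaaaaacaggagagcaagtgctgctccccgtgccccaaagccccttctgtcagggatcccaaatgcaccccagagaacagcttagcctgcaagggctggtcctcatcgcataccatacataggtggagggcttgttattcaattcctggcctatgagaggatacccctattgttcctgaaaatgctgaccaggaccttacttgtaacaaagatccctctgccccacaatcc
Cldn5: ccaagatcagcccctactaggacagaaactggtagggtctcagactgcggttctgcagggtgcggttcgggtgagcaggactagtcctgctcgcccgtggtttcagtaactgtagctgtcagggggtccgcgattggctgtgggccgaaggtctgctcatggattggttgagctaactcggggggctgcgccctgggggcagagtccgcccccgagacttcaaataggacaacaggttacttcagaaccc
Emcn: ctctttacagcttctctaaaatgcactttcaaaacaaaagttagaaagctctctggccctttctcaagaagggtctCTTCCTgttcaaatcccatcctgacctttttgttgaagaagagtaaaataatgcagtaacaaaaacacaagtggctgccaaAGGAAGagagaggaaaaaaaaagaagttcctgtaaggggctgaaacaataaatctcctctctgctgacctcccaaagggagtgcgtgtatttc
Eng: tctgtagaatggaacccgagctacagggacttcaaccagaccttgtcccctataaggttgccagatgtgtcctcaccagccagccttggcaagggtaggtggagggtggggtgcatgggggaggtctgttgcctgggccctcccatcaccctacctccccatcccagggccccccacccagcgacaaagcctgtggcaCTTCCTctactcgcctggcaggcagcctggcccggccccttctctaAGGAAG
The Emcn and Eng windows each held 2 matches, and the Tek and Cldn5 windows held 0. The letters did not follow the direction of the difference over the other genes, since the window of Kdr, which was higher, also held 0, while that of Tie1, which was slightly lower, held 1 and that of Flt1 held 2. In all, 4 of the 7 endothelial genes matched in the RefSeq table held the motif on either strand, against 29.5% of all 32851 promoter windows of that length. A match describes the letters only.

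The endothelial genes as a group were close to equal in signal on the arrays. The 10 genes had a median difference (double knockout minus wild type, log2) of 0.017, but -0.081 when all differences were centred on the median of the measured genes and -0.023 after quantile normalization. All 10 lay above the floor on both arrays; the floor, 6.18 on the wild-type and 6.19 on the double-knockout array, is the median signal of annotated probe sets, and genes under it on both arrays are not counted as measured. None of the 10 was at least 2-fold lower and none by 2-fold or more higher, beside 2.73% and 0.51% of the 10393 genes measured. At 1.5-fold both counts were again 0, beside 5.11% and 3.07%. Below 0 were 5 of the 10, beside 32.2% of all measured genes, whose median difference was 0.098. After centring, the values were 7 of 10 and 50%. Each of the 20 skeletal muscle genes examined alongside passed 2-fold on the lower side, and their median of -4.97 understates the loss because 18 of them were at the floor in the double knockout. A whole tissue gives no level per cell, so fewer endothelial cells and less RNA per cell cannot be told apart. Each signal is also relative to the total RNA on its array, to which muscle adds in the wild type only. Near-equal signals therefore do not show an equal amount of vessel.

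**Figure D1:**
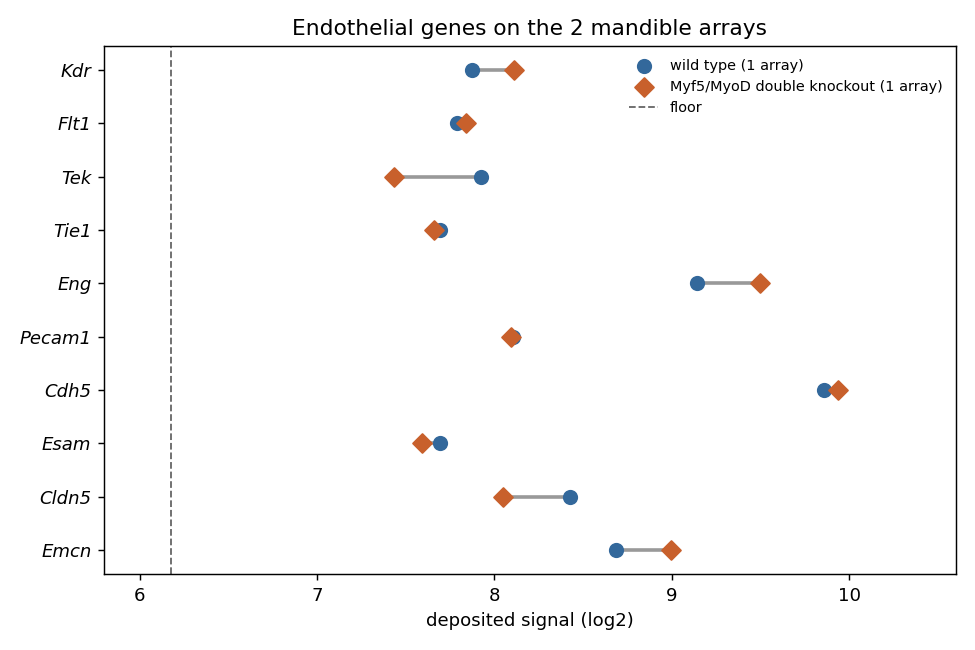
Deposited log2 signal (horizontal axis) of the 10 endothelial genes (rows) on the wild-type array (circles) and the double-knockout array (diamonds), 1 array each, with a dashed line at the wild-type floor of 6.18. The pairs of points lie close together in every row, widest apart for Tek at 7.92 and 7.44, and no gene is near the floor. Signals of different probe sets are not comparable between rows.

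Within the group the differences ran from -0.49 for Tek to 0.36 for Eng. How far 1 pair of arrays can be trusted was gauged from 532 genes that had more than 1 probe set over the floor on both arrays. For each, the difference of the second brightest probe set was subtracted from that of the brightest, and these gaps had an SD of 0.23. A gap holds the scatter of 2 probe sets, so its SD is a wide yardstick for the difference of 1. The SD leaves out differences between animals and between hybridizations. Past that SD lay 5 of the 10 genes, Tek and Cldn5 on the lower side and Kdr, Emcn and Eng on the higher side, of which Kdr (0.14) and Emcn (0.21) were inside it after centring and Eng (0.26) was not. The other 5, Pecam1, Cdh5, Flt1, Tie1 and Esam, lay within it. Passing this SD was common: 38.0% of all measured genes had a larger absolute difference than Kdr, the smallest of the 5 past it. Among the 4465 genes of similar signal, the central 90% of differences ran from -0.50 to 0.50, and all 10 endothelial genes fell inside that range.

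Of the VEGF receptors, Kdr, the main signalling receptor, had a signal of 7.87 on the wild-type and 8.11 on the double-knockout array. It was thus 0.23 higher on the log2 scale, or 1.18-fold. Flt1, the decoy receptor, stood at 7.79 and 7.84, a difference of 0.050 that became -0.048 after centring. Neither receptor came near the 2-fold mark. Their ligand Vegfa, which is induced by low oxygen, was 8.55 and 8.63, a difference of 0.08. Vegfb, a ligand of Flt1 that is abundant in oxidative muscle and heart, was 8.62 and 8.12, which is 1.41-fold lower. Nrp2, a co-receptor for VEGF and semaphorins that is also found on lymphatic vessels and neurons, was 1.52-fold higher (9.30 and 9.90). Of 11 further genes of this pathway 9 were measured, none apart by 2-fold or more. Of these, 3 were lower and 6 higher than in the wild type, beside 32.2% of all measured genes lower. After centring 5 were lower and 4 higher, beside 50% lower. Others with the larger differences were Plcg1, the phospholipase that Kdr activates (0.30), and Shb, an adaptor at the same receptor (0.22).

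The Tie receptors differed from each other. Tek gave 7.92 on the wild-type and 7.44 on the double-knockout array, which is 1.403-fold lower and the lowest difference of the 10 genes. Of all measured genes 6.28% had a lower difference. Tie1, long regarded as an orphan receptor that modulates Tek, gave 7.69 and 7.66, a difference of -0.035 that lies within the spread between probe sets. The Tek ligands Angpt2 and Angpt1 were higher in the double knockout. Angpt2, the context-dependent antagonist released by endothelial cells at remodelling vessels, was 6.57 and 7.65, or 2.11-fold higher and 1 of the 53 genes at least 2-fold higher on these arrays. Angpt1, the agonist made by mural and mesenchymal cells, was 6.58 and 7.18, or 1.52-fold higher. After centring they were higher by 0.98 and 0.50, so that Angpt2 no longer reached 2-fold. Angptl1, an angiopoietin-like secreted protein not known to bind Tek, was 3.15-fold lower (8.58 and 6.92), and the matrix protein Svep1 was 0.19 higher. These were 4 of the 5 measured genes of the 8 listed. Angpt4, a further angiopoietin of the list named outside the rule, was below the floor on both arrays.

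Eng (endoglin), the co-receptor that presents BMP9 and TGF-beta family ligands to Acvrl1 in endothelium, had the highest difference of the 10 genes. It was 9.14 on the wild-type and 9.50 on the double-knockout array, 1.28-fold higher, and 88.0% of measured genes had a lower difference. Its signalling partner Acvrl1 was 7.16 and 7.18, a difference of 0.02 that became -0.08 after centring. The BMP9 gene Gdf2, made mainly by liver, lay below the floor on both arrays. Tgfb1 was 1.41-fold higher. Of 15 partners and targets 13 were measured and 12 were higher as deposited, beside 67% of all measured genes, none by 2-fold or more. After centring 11 were higher, beside 50% of all measured genes lower, and 11 were also higher after quantile normalization. The median of the 13 was 0.36, or 0.26 after centring. They included Id2 (0.82), Smad6 (0.61) and Id3 (0.58), all targets of BMP signalling. Most of these genes are active in bone, cartilage and other mesenchyme too, and the list of jaw skeleton and tooth genes had 10 of 11 measured members above 0 on the same arrays, with a median of 0.49. The part of bone, cartilage and other mesenchyme in the values of Eng and of the endoglin pathway genes was not tested.

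Of the 4 junction genes, Cdh5, Pecam1 and Esam differed by little and Cldn5 was lower. Cdh5 (VE-cadherin), the adherens junction cadherin found almost only in endothelium, gave 9.86 and 9.94, a difference of 0.083 that became -0.015 after centring. Pecam1 (CD31), which sits at the contacts between endothelial cells and also on platelets and leukocytes, gave 8.11 and 8.09, a difference of -0.015. Esam, an adhesion molecule of endothelial tight junctions and platelets, gave 7.69 and 7.59, a difference of -0.10. Cldn5 (claudin-5), the main sealing claudin of endothelial tight junctions, gave 8.42 and 8.05 and was 1.30-fold lower, and 7.90% of measured genes had a lower difference. Among the partners of these proteins 12 of 15 were measured, 9 of them higher and 3 lower under each scaling. Of all measured genes 67% were higher and 32.2% lower as deposited, and 50% were lower after centring. Jam2, a junctional adhesion molecule of endothelium and other cells, was 1.44-fold lower (8.59 and 8.06). The next in size were the catenin Ctnnb1 (0.39), Afdn (afadin, 0.34) and F11r (JAM-A, 0.33), all of which epithelium expresses too.

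Emcn (endomucin), a sialomucin on the surface of capillary and venous endothelium that is used, together with Pecam1, to mark the capillaries of growing bone, gave 8.68 on the wild-type and 8.99 on the double-knockout array. The difference of 0.31 is 1.24-fold, and 83.6% of measured genes had a lower one. Pecam1 did not share it.

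**Figure D2:**
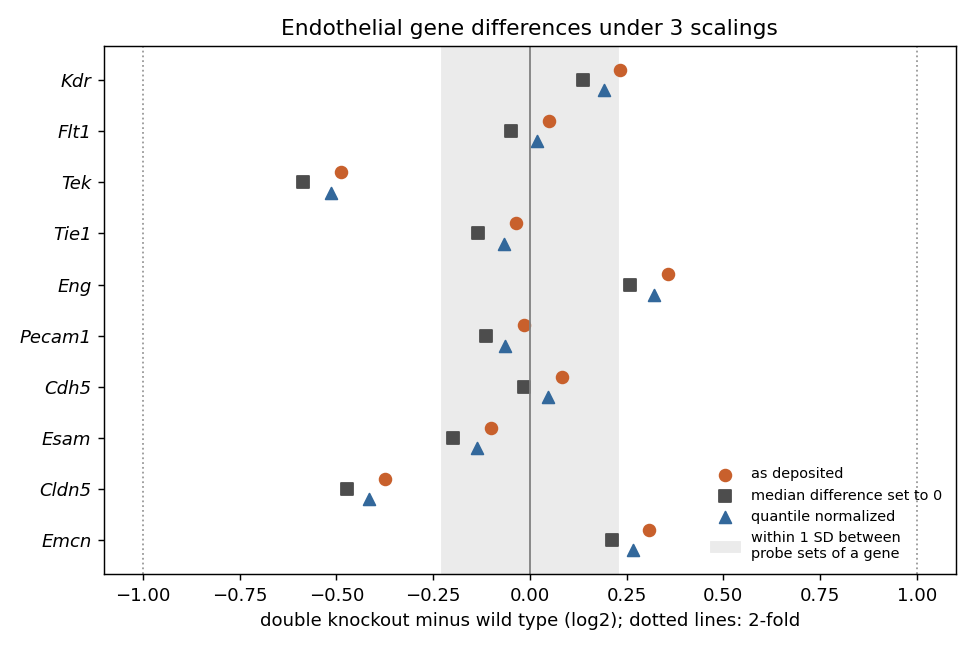
Difference of each endothelial gene (double knockout minus wild type, log2, horizontal axis) as deposited (circles), centred on the median of the measured genes (squares) and after quantile normalization (triangles). The grey band is 1 SD between probe sets of a gene (0.23) on either side of 0. Under all 3 scalings Tek and Cldn5 stay to the left of the band and Eng to the right. No gene reaches the dotted 2-fold lines, and Cdh5 and Flt1 cross 0.

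Endothelial genes outside the 10 also had a median near 0. Of 37 other pan-endothelial genes and transcription factors 31 were measured, none apart by 2-fold or more. As deposited 15 were lower and 16 higher, beside 32.2% of all measured genes lower. After centring 23 were lower and 8 higher, beside 50% lower, and after quantile normalization 19 were lower. The median of the 31 was 0.0039, beside 0.098 for all measured genes. It was -0.094 after centring and -0.015 after quantile normalization. The range of these genes was wider than that of the 10, from -0.75 to 0.57. Cd34, a sialomucin of endothelium that mesenchymal cells and muscle satellite cells also carry, was 1.68-fold lower (10.27 and 9.52). Cav1, the caveolar coat protein that fat and fibroblasts share, was 1.51-fold lower (10.18 and 9.58), and Calcrl, the adrenomedullin receptor of endothelium, was 1.46-fold lower (7.83 and 7.28). Plvap, the diaphragm protein of fenestrated capillaries, was 1.49-fold higher (7.43 and 8.001).

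By vessel type, arterial genes had 8 of 12 measured members higher as deposited, a share close to the 67% of all measured genes that were higher, and a median of 0.25. After centring 8 were again higher, beside 50% of all measured genes lower, and after quantile normalization 9 were higher. The Notch target Hey1 was 1.503-fold higher, the netrin receptor Unc5b 1.44-fold, the chemokine Cxcl12 1.30-fold, and Hey2 at least 1.31-fold, its wild-type value being below the floor. All 4 are also made outside arteries. Venous genes had 4 measured members with a median of 0.20, among them the receptors Ephb4 (0.25) and Aplnr (0.20), the adhesion molecule Vcam1 (0.20) and the venous factor Nr2f2 (-0.063). Of 8 lymphatic genes 5 were measured, with a median of 0.18. Under each scaling 2 were lower and 3 higher, beside 32.2% of all measured genes lower as deposited and 50% after centring. The hyaluronan receptor Lyve1, which tissue macrophages also carry, was 1.88-fold lower (8.72 and 7.81), while the VEGF-C receptor Flt4 was 0.19 higher, Reln 0.22 and Thy1 0.18. Pdpn, named outside the rule, was at -0.11 (9.17 and 9.06). Prox1, also named outside the rule, was below the floor on both arrays.

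Genes known for high levels in heart and muscle capillaries had a median of -0.64, beside 0.017 for the 10 endothelial genes and 0.098 for all measured genes; the difference between the lists was not tested. Of 10 such genes 8 were measured, 7 were lower (8 after centring), beside 32.2% of all measured genes (50% after centring), and 2 were at least 2-fold lower, beside 2.73%. Meox2, a homeobox factor of muscle and heart endothelium that muscle precursors and mesenchyme also express, was 2.99-fold lower (8.61 and 7.03). Cd36, the fatty acid receptor of capillaries, muscle fibres, fat and macrophages, was 2.67-fold lower (8.13 and 6.71). The fatty acid carrier Fabp4, of capillaries and fat, was 1.65-fold lower, and Lpl, the lipase that muscle and fat place on the capillary wall, was 1.61-fold lower. Muscle or fat also makes these genes, and what share of their signal came from endothelium was not tested. Gpihbp1, named outside the rule, was the only measured gene of the list above 0 as deposited (6.52 and 6.55, a difference of 0.031). Tcf15 and Rbp7, also named outside the rule, were below the floor on both arrays.

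**Figure D3:**
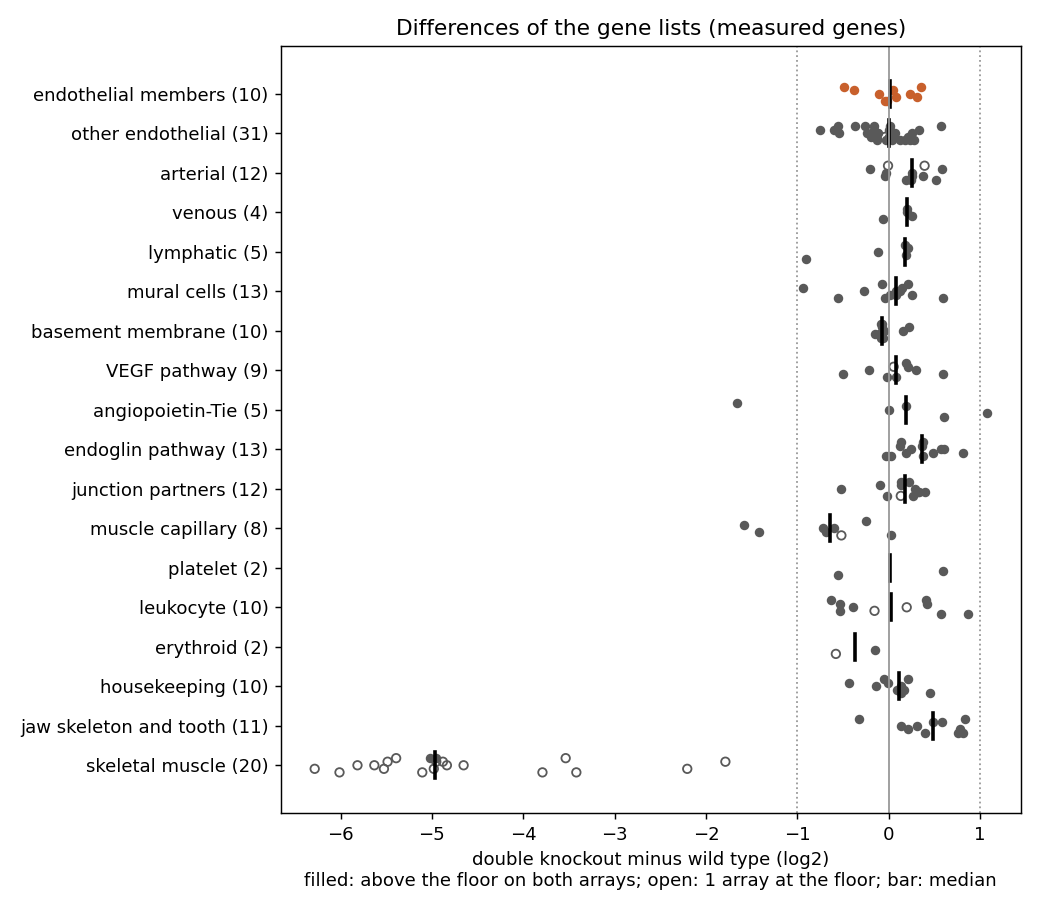
Differences (double knockout minus wild type, log2, horizontal axis) of the measured genes of each list, with the number measured in brackets. Each point is a gene, open where 1 array was at the floor, black bars are medians and dotted lines mark 2-fold. The 10 endothelial genes spread around 0 between -0.49 and 0.36, whereas all 20 skeletal muscle genes lie left of the 2-fold line and the muscle capillary list has a median of -0.64.

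Cells around the vessels were mixed. Of 15 genes of pericytes and vascular smooth muscle 13 were measured, with a median of 0.084. Of these, 5 were lower and 8 higher, beside 32.2% of all measured genes lower. After centring 8 were lower and 5 higher, beside 50% lower. None was 2-fold apart as deposited, but Acta2 was at -1.03 after centring. Pdgfrb, the pericyte receptor that mesenchyme shares, was 1.51-fold higher (8.91 and 9.51). Acta2, smooth muscle actin, which fetal skeletal muscle also makes, was 1.91-fold lower (11.21 and 10.28), Abcc9, a potassium channel subunit of pericytes and muscle, 1.47-fold lower, and the proteoglycan Cspg4 1.21-fold lower. Of the 10 genes of the vessel basement membrane, all measured, 8 were lower under each scaling, beside 32.2% of all measured genes as deposited and 50% after centring. The differences were small, from -0.15 to 0.22 with a median of -0.069 (-0.17 after centring). The ends of that range were the collagen Col4a2 and the laminin Lama5. Nid2 was at 0.16 and Nid1 at -0.11. What share of the signal of these 10 genes came from vessels was not tested.

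Blood cells share some of the 10 genes, so their markers were read beside them. Of 10 platelet and megakaryocyte genes 7 had a probe set of their own and 2 of these were measured, Pf4 (1.47-fold lower, also made by macrophages) and Itgb3 (1.51-fold higher, also the vitronectin receptor subunit of osteoclasts). The platelet-defining Itga2b, Gp9 and Gp5, named outside the rule, lay below the floor on both arrays. Of 12 leukocyte genes 10 were measured. As deposited 5 of them were lower, beside 32.2% of all measured genes, and 5 higher, with a median of 0.023. Their summed linear signal, which the brighter probe sets dominate, was 2981 on the wild-type and 3677 on the double-knockout array. Cd68 was 1.82-fold and Csf1r 1.49-fold higher, both also genes of osteoclasts, whereas C1qc and Mrc1, of resident macrophages, were 1.55-fold and 1.45-fold lower. The pan-leukocyte gene Ptprc, named outside the rule, was below the floor on both arrays. What part these cells had in the values of Pecam1, Eng or Tek was not tested. Of the red cell list 2 of 10 genes were measured, Slc4a1 (at least 1.49-fold lower) and Alas2 (-0.15).

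The labels were checked on the same arrays. The wild-type array held the muscle genes Actc1, Acta1, Tnnt3 and Atp2a1 at 11.82 to 12.47, and the double-knockout array held them below the floor, so that they were at least 77.8-fold, 64.5-fold, 56.3-fold and 49.5-fold lower. Myod1 gave 7.14 and 6.49, and Myf5 gave 6.31 and 4.95, the latter below the floor. No source used here places their probes inside or outside the deleted sequence. Jaw genes were present on both arrays, including Hand2, Dspp, Msx1 and Sox9, which were 1.70-fold to 1.79-fold higher in the double knockout. Of 12 housekeeping genes 10 were measured, with a median of 0.11 and a range from -0.43 (Sdha) to 0.46 (Gusb), which holds the differences of all 10 endothelial genes but Tek. Sdha alone set the lower end. The next lowest, Hprt, named outside the rule, was at -0.14, and Cldn5 (-0.37) lies below that as well. Polr2a was at 0.22 and Ppia at 0.17. The Y-linked gene Eif2s3y gave 2.38 and 6.55, so the make-up of the samples by sex differed and cannot be told apart from genotype; none of the 10 endothelial genes lies on the X or Y chromosome in the RefSeq table.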

How the data were processed

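Per the labels, total RNA of each mandible was labelled and hybridised to an Affymetrix array. The deposited table gives log2 signals of 35557 probe sets per array; the base was read from the range of the values, 1.42 to 13.35 and 1.42 to 13.34. MAS5 is named in the submitters' processing notes, and the background correction, log step, normalization between arrays and genome build are not given in the sources used here. Both columns share the same lowest value, and how the probe sets were summarised is not settled. Arrays were compared as deposited.

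Gene names came from GEO's platform annotation: 21789 probe sets named 1 gene, 1621 several and 12147 had no entry. Only those naming 1 gene were used, and a gene was represented by its probe set of highest mean linear signal. Values below each array's floor (the 50th percentile of annotated probe sets) were raised to it, and a gene above it on at least 1 array was measured (10393 of 19938). Calls were differences of at least 2-fold. No test was possible, and the number of arrays limits the precision. Named are the 10 endothelial genes, the ligands Vegfa, Vegfb, Angpt1, Angpt2, Gdf2 and Tgfb1, the partner Acvrl1, Myf5, Myod1 and the 4 genes with the largest differences of each other list. The members and lists were chosen with earlier results of these data known. The calculations, in Python 3.11.15 with pandas 2.3.3, were tested on simulated data. Alternatives were 2 other scalings, floors at the 25th and 75th percentile, no floor, the median over probe sets, and thresholds of 1.5-fold and 3-fold.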

Additional observations from a re-analysis of the deposited data

How the results depend on the processing

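No endothelial gene passed the fold threshold in either direction (counts of 0 and 0) under either other scaling or at 1.5-fold. The other alternatives could add no call, since all 10 genes have 1 probe set and lie above the floor. Below 0 were 3 of 8 when the floor was raised to the 75th percentile, where Esam and Tie1 were not measured, and the difference of Tek was -0.15 there because its double-knockout value was raised to that floor. The median of the 10 genes changed sign, to -0.081 after centring on the median of the measured genes and -0.023 after quantile normalization, and stayed within the spread between probe sets of its main value. The skeletal muscle median was -6.44 under the 25th-percentile floor and likewise with none, and -3.45 under the 75th-percentile floor, as the floor bounds these genes. Of 540 alternative values for 93 single genes and other lists, 32 moved by more than that spread and 0 of the called ones changed sign. No paired analysis was possible because each genotype has 1 array. Signals near the floor limit what can be seen of genes such as Gdf2.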
